A study of Homo sapiens with 4 samples.

Results

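The SMAD proteins and the SMURF ubiquitin ligases were examined as 1 set of 10 genes (SMAD1 to SMAD7, SMAD9, SMURF1 and SMURF2) of 20046 protein-coding genes, in lists of N6-methyladenosine (m6A) peaks of OE-19 cells. The genes were chosen by name, with earlier results of these data known. A peak was given to a gene when its summit, the position of strongest enrichment, lay within the gene body (GENCODE, hg38). By this rule 30 of 24607 peaks of replicate 1 and 17 of 19318 peaks of replicate 2 belonged to the set. The summit lay in an exon for 27 of the 30 and for 15 of the 17.

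OE-19 is an established cell line of adenocarcinoma of the esophagogastric junction. RNA of these cells was pulled down with an antibody against m6A and sequenced, which gave 1 group of 2 m6A immunoprecipitation (IP) samples, and 2 input samples accompanied them. Each IP sample had its own peak list, and no list of the input samples was used here, so no treated or control condition was compared. The study calls the replicates biological, while the labels named no treatment and did not say whether they were separate cultures.

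SMADs carry signals of the TGF-β family from the cell surface to the nucleus. Receptors for bone morphogenetic proteins (BMPs) phosphorylate SMAD1, SMAD5 and SMAD9, whereas receptors for TGF-β and activin phosphorylate SMAD2 and SMAD3, and both kinds of receptor-activated SMAD then join the common partner SMAD4 to regulate genes. SMAD6 and SMAD7 inhibit this relay at the receptor, and they recruit SMURF1 and SMURF2, HECT-type ligases that mark receptors and SMADs for degradation. On mRNA, m6A is written mostly within DRACH words (D stands for any base but C, R for a purine and H for any base but G), of which GGAC is the most frequent core, and it is known to gather in long internal exons and around stop codons.

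For each gene with an exonic peak, the GGAC nearest to a summit of its strongest peak was read from hg38. These stretches are shown because each holds the GGAC at the shortest distance from a summit of the peak in either list, and the capitals mark GGAC. A match is a description of the letters and not a measured m6A site, since the exonic peaks of the lists had median widths of 318 and 367 bp. The GGAC of SMAD7 and that of SMURF1 are followed by G, so neither forms a DRACH word. In these genes the DRACH words nearest to the replicate 1 summit were AAACT in SMAD7, at −36 nt, and TAACC in SMURF1, at −4 nt. The sequences run 5′ to 3′ on the strand of the gene, and the strongest peak is the strongest one found in both lists, except for SMAD4, which had a peak in replicate 1 alone.
SMAD1, coding sequence, chr4:145514847-145514870, plus strand: ccaccggaagGGACtgcctcatgt
SMAD5, coding sequence, chr5:136153928-136153951, plus strand: gagcagtccaGGACagccgagtaa
SMAD9, coding sequence, chr13:36879563-36879586, minus strand: agaaggcagtGGACtctctagtga
SMAD2, 3′ UTR, chr18:47841738-47841761, minus strand: tggtccctatGGACtgtttactat
SMAD3, 3′ UTR, chr15:67190897-67190920, plus strand: cctctgtctaGGACtgcagtgtgg
SMAD4, coding sequence, chr18:51047039-51047062, plus strand: ttgaacaaatGGACaatatgtcta
SMAD6, 5′ UTR, chr15:66703019-66703042, plus strand: ggccgcgcgcGGACtgcggctcgg
SMAD7, coding sequence, chr18:48950053-48950076, minus strand: tcccgcggcgGGACgcgcaccgcg
SMURF1, 3′ UTR, chr7:99029517-99029540, minus strand: agtagggtgtGGACgcaaacctgt
SMURF2, 3′ UTR, chr17:64545813-64545836, minus strand: gatttacccaGGACtctatttata

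Every gene of the set but SMAD4 carried an m6A peak in both replicates. All 10 genes had an exonic peak in replicate 1, against 42.4% of protein-coding genes, and 9 had one in replicate 2, against 34.1%. These 9 stood against 33.4% of all protein-coding genes and 43.8% of those whose exonic length lay within the range of the set (3946 to 36426 bp). The lists hold no expression values, so methylation and the amount of transcript cannot be told apart in these counts. The strongest exonic peaks were those of SMAD1 and SMAD3, and the lowest best values of replicate 1 were those of SMAD6, SMURF1 and SMAD4.

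**Figure D1:**
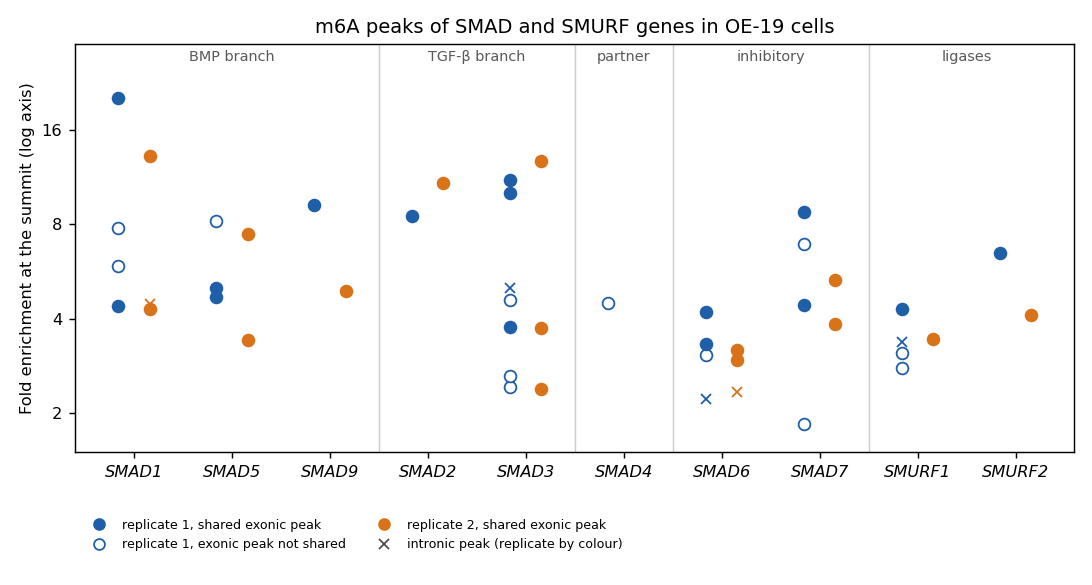
Fold enrichment at the summit (log axis) of every peak in the 10 gene bodies, by gene and replicate, with filled points for exonic peaks found in both lists, open points for exonic peaks of 1 list and crosses for intronic peaks. The strongest peak of SMAD1 reached 20.1 in replicate 1 and 13.2 in replicate 2, while the exonic peaks of SMAD6 stayed at or below 4.20.

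Among the receptor-activated SMADs, the BMP-branch members SMAD1, SMAD5 and SMAD9 each carried a peak of both replicates over the exon that holds the start codon. SMAD1 (chr4:145481194-145559176, plus strand, 7 exons) had the highest value of the set, in exon 2 with the summit in the coding sequence. This peak (chr4:145514528-145515009 in replicate 1) had a fold enrichment of 20.1 with a −log10 q of 93.2, and in replicate 2 (chr4:145514612-145514911) it had 13.2 with a −log10 q of 85.1. These values were above 99.4% and 98.1% of the exonic peaks of their lists, and the summits lay 11 bp apart. An exon of SMAD1-AS1 also covers the summit, and because the lists carry no strand, reads of SMAD1 and of this neighbour cannot be told apart there.

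SMAD1 had a second shared peak directly at its stop codon. The summit of replicate 1 was placed at 1 nt and that of replicate 2 at −1 nt, counted from the start of the stop codon, and the fold enrichments were 4.40 and 4.30. Replicate 1 listed 2 more coding-sequence peaks that replicate 2 did not, in exon 3 with 7.78 and in exon 5 with 5.86, and replicate 2 listed 1 intronic peak with 4.44 that replicate 1 did not. Thus the 2 exonic peaks of SMAD1 in replicate 2 were both found in replicate 1, whereas 2 of the 4 in replicate 1 were not found again.

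SMAD5 (chr5:136132845-136188747, plus strand, 8 exons) had its coding-sequence peak in exon 3. The fold enrichment was 4.69 in replicate 1 and 7.46 in replicate 2, which made it 1 of 3 shared peaks of the set that were higher in the second list. A 3′ UTR peak 1778 nt past the stop codon had 4.99 in replicate 1 and 3.42 in replicate 2. The highest value of SMAD5 in replicate 1, 8.18, belonged to a peak 129 bp wide near the 5′ end of the gene, in an exon of a transcript other than the reference one, and replicate 2 did not list it.

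SMAD9 (chr13:36844831-36920887, minus strand, 7 exons) had 1 peak in each list, and both summits fell on the same base. This peak in exon 2 (chr13:36879412-36879760 in replicate 1) was enriched 9.18-fold in replicate 1 and 4.91-fold in replicate 2. The GGAC shown for SMAD9 begins the DRACH word GGACT, and its adenine lay at −11 nt from both summits. No other exonic peak was listed for SMAD9, whose 3′ UTR is 3845 nt long.

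The 3 BMP-branch peaks occupied corresponding positions of related sequences. After alignment of the coding sequences, the summits lay at positions 161 and 172 of the SMAD1 coding sequence for SMAD1, at 203 and 165 for SMAD5 and at 115 for SMAD9 in both replicates, counted from 1 at the first base of the start codon. Within the SMAD1 peak of replicate 2, SMAD5 was identical to SMAD1 at 77.5% of aligned bases and SMAD9 at 76.8%. For SMAD2 and SMAD3, which had no shared peak over the start codon, these values were nearly as high, at 73.2% and 72.5%. The longest run of identical bases shared with SMAD1 was 20 nt for SMAD5 and 23 nt for SMAD9, and none of the 31-base words of these 6 peaks occurred elsewhere in the genome.

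**Figure D2:**
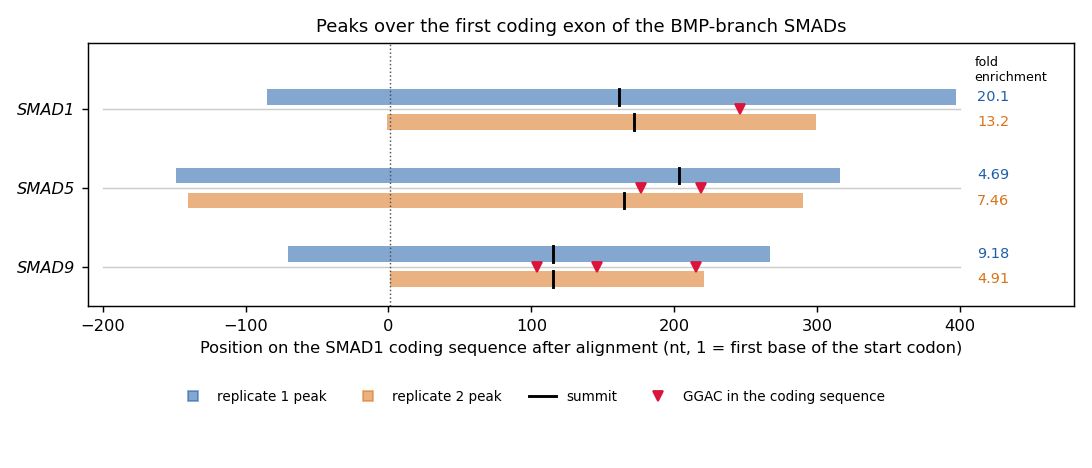
Peaks over the start-codon exon of SMAD1, SMAD5 and SMAD9 in both replicates, drawn on positions of the SMAD1 coding sequence after alignment, with summits as black lines, GGAC adenines of the coding sequence as red triangles and the fold enrichment at the right. Peak bars before the start codon are in bases of each gene's own transcript. All summits lay between positions 115 and 203, and no coding GGAC of 1 gene lined up with that of another.

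The GGAC words in the coding part of these peaks differed between the 3 genes. SMAD1 held 1 such GGAC, with the adenine at coding position 246, which lay 85 nt and 74 nt past the summits of replicates 1 and 2. SMAD5 held 2 in its coding part, at its own positions 180 and 222, and 3 in the whole stretch common to both lists, which includes 141 nt of 5′ UTR. SMAD9 held 3, at its own positions 116, 158 and 227. None of these 6 coding adenines lay at an aligned position that held a GGAC in another of the 3 genes. The aligned stretches at the SMAD9 site of position 158 and at the SMAD5 site of position 180 are given to show this. Capitals mark the aligned bases of the word. Outside the BMP branch, a GGAC of SMAD3 lay at the same aligned position as the SMAD9 word of position 158, at position 146 of SMAD1. That SMAD9 word is followed by G and so is not a DRACH word.
SMAD1 at SMAD9 position 158, chr4:145514747-145514770, plus strand: aaggtgccatGGAGgaactggaaa
SMAD5 at SMAD9 position 158, chr5:136153897-136153920, plus strand: agggtgccatGGAGgaactggaga
SMAD9 at SMAD9 position 158, chr13:36879521-36879544, minus strand: agggagccatGGACgagctggaga
SMAD1 at SMAD5 position 180, chr4:145514778-145514801, plus strand: gagctgcccaGGGCaaccgagtaa
SMAD5 at SMAD5 position 180, chr5:136153928-136153951, plus strand: gagcagtccaGGACagccgagtaa
SMAD9 at SMAD5 position 180, chr13:36879490-36879513, minus strand: cagctgcccgGGGCagcccagcaa
In SMAD1 the word closest to the replicate 1 summit was another DRACH word, GAACT, with its adenine at −11 nt, so the strongest peak of the set had no GGAC within 50 nt of its summit in either replicate.

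SMAD2 and SMAD3, the TGF-β and activin branch, had no shared peak over the start codon, and their strongest peaks had their summits at or past the stop codon. SMAD2 (chr18:47808957-47931146, minus strand, 11 exons) had a single peak in each list, at the stop codon. Its fold enrichment was 8.46 in replicate 1, with the summit 6 nt past the start of the stop codon, and 10.8 in replicate 2, with the summit at 62 nt. This was the only SMAD2 peak although the annotated 3′ UTR of the reference transcript runs for 32870 nt. The GGAC shown for SMAD2, which is part of GGACT, lay at 74 and 18 nt from the 2 summits.

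SMAD3 (chr15:67063763-67195173, plus strand, 9 exons) had 7 peaks in replicate 1, the most of the set, and 3 in replicate 2, as many as SMAD1 and SMAD6. The strongest began before the stop codon and reached into the 3′ UTR (chr15:67190397-67191341 in replicate 1), enriched 11.03-fold in replicate 1 and 12.7-fold in replicate 2, with summits 420 and 416 nt past the stop codon. Its −log10 q was 56.4 and 74.3, and it was the only peak besides that of SMAD1 to stand above 90% of exonic peaks in both lists. The GGAC shown for SMAD3 lay at −45 and −41 nt from its summits.

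Farther along the 3′ UTR of SMAD3, 2 more peaks were shared. That with its replicate 1 summit 4272 nt past the stop codon had 10.0 in replicate 1 and 3.73 in replicate 2, a log2 ratio of 1.43 that was larger than that of 96.0% of all shared exonic pairs. The peak with its summit at 3797 nt in replicate 1 had 3.76 and 2.39. Replicate 1 alone listed a peak with 2.42 that had its summit in the 5′ UTR and also covered the start codon, a peak in exon 8 with 2.63, a 3′ UTR peak with 4.59 and an intronic peak with 5.01.

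SMAD4, the partner that both branches share, had 1 peak in replicate 1 and none in replicate 2. SMAD4 (chr18:51028528-51085045, plus strand) has 12 exons, and its exonic length of 19606 bp is exceeded in the set by that of SMAD2 alone. The peak (chr18:51047012-51047182) lay in coding exon 2 with a fold enrichment of 4.48 and a −log10 q of 4.04, above 38.6% of the exonic peaks of its list. The exon at the summit also belongs to ENSG00000267699, and reads of the 2 genes cannot be told apart there.

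The inhibitory SMADs had broad peaks over their first exon and narrower ones upstream of the stop codon. SMAD6 (chr15:66702236-66782849, plus strand, 4 exons) had an exon 1 peak 2077 bp wide in replicate 1 and 1989 bp wide in replicate 2, wider than 98.6% and 98.5% of the exonic peaks of each list. Its fold enrichment was 4.20 and 3.18, and the 2 summits lay 830 bp apart, 1 in the 5′ UTR and 1 in the coding sequence. The stretch common to both lists, 1989 bp of genome, covered 992 nt of 5′ UTR and 817 nt of coding sequence and ran on past exon 1. Counted over all 1989 bp, it held 12 GGAC words and had a GC content of 69.6%. Of these, the GGAC shown for SMAD6 lay at −72 nt from the replicate 1 summit and at −902 nt from that of replicate 2, whose own nearest GGAC lay at −109 nt.

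SMAD7 (chr18:48919853-48950965, minus strand, 4 exons) showed the same layout with higher values. Its exon 1 peak was enriched 8.72-fold in replicate 1 and 5.31-fold in replicate 2, with widths of 2218 and 1124 bp and summits 7 bp apart. In replicate 1 this peak ran 1028 bp past the annotated start of the gene, and in replicate 2 it stayed inside the gene. The stretch common to both lists held 6 GGAC words with a GC content of 71.9%, and the GGAC shown for SMAD7 lay 19 and 26 nt from the summits.

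Both inhibitory genes also shared a peak in exon 4, their last exon, with the summit before the stop codon. For SMAD6 the fold enrichment was 3.32 in replicate 1 and 2.94 in replicate 2, with summits at −199 and −246 nt from the stop codon. For SMAD7 it was 4.43 and 3.85, with summits at −193 and −143 nt. In SMAD7 the common stretch of 391 nt lay wholly in the coding sequence and held 6 GGAC words. The remaining peaks of these genes were weaker or were found in 1 list: SMAD6 had a shared intronic peak with 2.22 and 2.33 and an unshared one with 3.05 in an exon of another transcript, and SMAD7 had unshared peaks of replicate 1 with 6.89 in an exon of another transcript and with 1.85 in the 3′ UTR.

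The 2 ligases had their shared peaks in the last exon. SMURF2 (chr17:64542282-64662307, minus strand, 19 exons) had 1 peak in each list, at the stop codon, enriched 6.48-fold in replicate 1 and 4.11-fold in replicate 2, with summits 35 and 23 nt past the stop codon. The GGAC shown for SMURF2, part of GGACT, lay at −9 and 3 nt from these summits, the closest of the set. SMURF1 (chr7:99027440-99144108, minus strand, 18 exons) had its shared peak in the 3′ UTR, 1007 and 983 nt past the stop codon, with 4.29 and 3.44. Replicate 1 alone listed 2 more 3′ UTR peaks of SMURF1, with 3.11 and 2.77, and an intronic peak with 3.36.

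**Figure D3:**
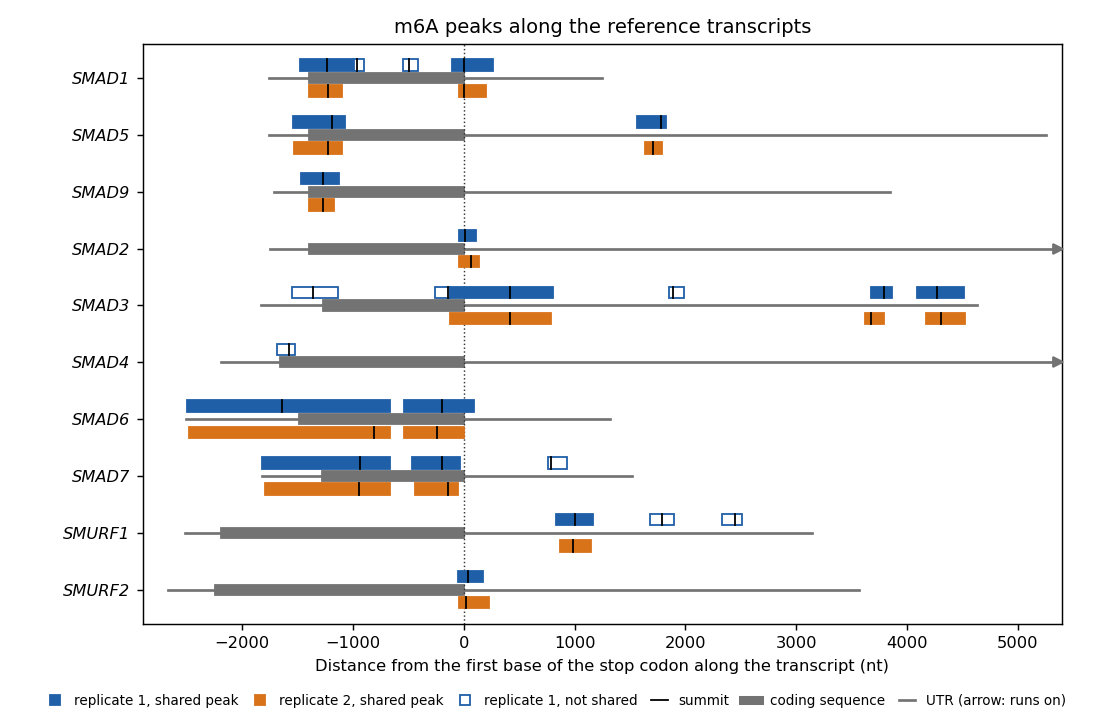
Peaks with their summit in the reference transcripts of the 10 genes, against the distance in nt to where the stop codon starts, with replicate 1 above and replicate 2 below each transcript and black lines at the summits. Only the part of a peak in the exon of its summit is drawn, and the peaks in introns or in exons of other transcripts are left out. Shared peaks of SMAD1, SMAD5, SMAD9, SMAD6 and SMAD7 cover the start codon in both lists, and those of SMAD1, SMAD2, SMAD3 and SMURF2 cover the stop codon in both.

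By region, 24 exonic summits of replicate 1 and all 15 of replicate 2 lay on the reference transcripts. The stop codon window, 200 nt to either side, held 6 of 24 in replicate 1 (25%, against 24.7% of all exonic summits of protein-coding genes) and 4 of 15 in replicate 2 (26.7%, against 27.3%), so the set was at the background. Farther into the 3′ UTR lay 9 of 24 (37.5%, 95% Wilson interval 21.2 to 57.3%), against 18.5% of all, and 5 of 15 (33.3%, 15.2 to 58.3%), against 20.2%. The value of all summits lay below the interval in replicate 1 and within it in replicate 2, and 4 of the 9 in replicate 1 and 3 of the 5 in replicate 2 came from SMAD3 alone. The coding sequence before the window held 7 of 24 (29.2%, 14.9 to 49.2%), against 47.7% of all. In replicate 2 it held 6 of 15 (40%, 19.8 to 64.3%), against 46.8%, and both values of all summits lay within these intervals. These intervals cover counting error only, and peaks of 1 gene are not independent.

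All 15 shared exonic summits of replicate 1 lay in exons of 500 nt or more, from 572 nt in SMAD5 to 32994 nt in SMAD2. Among all shared exonic summits on reference transcripts the share in such exons was 84.0%. Of the 9 unshared ones of the set, 5 lay in exons of this length, against 47.7% of all unshared summits. Last exons held 10 of the 15 shared summits, a count that was not set beside a share over all summits. The limit of 500 nt was chosen after the values were seen, and the exons of this length, 16 of the 99 of the set, hold 84.8% of its transcript bases.

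GGAC lay within 50 nt of the summit, on the strand of the gene, in 12 of 27 exonic peaks of replicate 1 (44.4%, against 49.8% of all exonic summits) and in 8 of 15 of replicate 2 (53.3%, against 51.8%). GGACT was found in 4 of 27 (14.8%, against 17.7%) and in 4 of 15 (26.7%, against 18.9%). Any DRACH word was present in 22 of 27 (81.5%, against 85.6%) and in 13 of 15 (86.7%, against 89.0%). GTCC, the reverse complement of GGAC searched as a control, was found in 10 of 27 (37.0%, against 31.4%) and in 4 of 15 (26.7%, against 29.5%). These shares lay close to those of all genes, and the motifs overlap, since GGACT is itself a DRACH word that holds GGAC.

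Of the 27 exonic peaks of replicate 1, 15 were shared, meaning that a peak of the other list overlapped them by at least 1 bp (55.6%, against 60.6% of all exonic peaks), and all 15 of replicate 2 were shared (100%, against 95.9%). Over the 15 shared pairs, 12 had the higher fold enrichment in replicate 1, with a median log2 ratio of replicate 1 over replicate 2 of 0.40 (SD 0.53). Over all 11018 shared exonic pairs this median was 0.43, and 80.2% were higher in replicate 1, so the offset between the lists was that of the whole lists. The 3 pairs that went the other way were those of SMAD5 in the coding sequence, with a log2 ratio of −0.67, of SMAD2, with −0.35, and of SMAD3 at its strongest peak, with −0.21. The SMAD5 ratio stood at the percentile 2.95 of all shared exonic pairs.

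**Figure D4:**
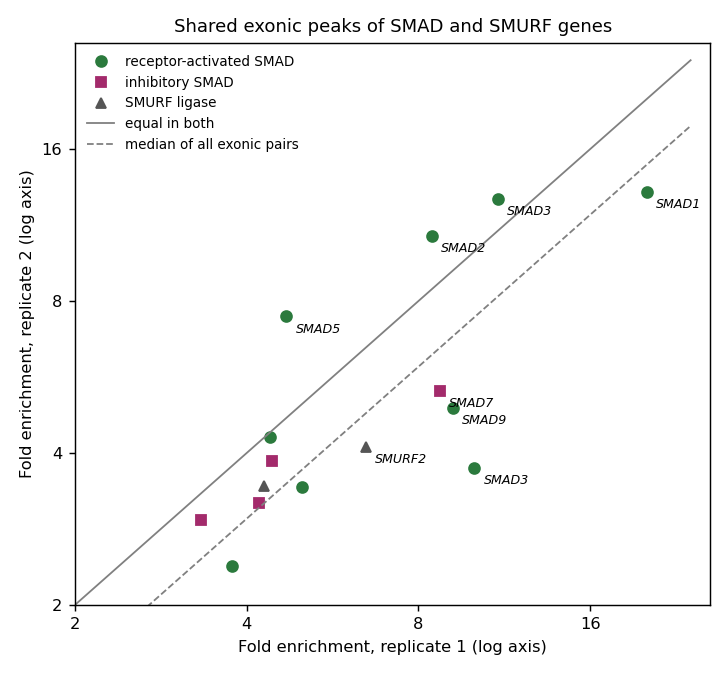
Fold enrichment of the 15 shared exonic peaks in replicate 1 against replicate 2 (both log axes), with circles for receptor-activated SMADs, squares for inhibitory SMADs and triangles for SMURF ligases, and the names of genes with a geometric mean above 5. The solid line marks equal values and the dashed line the median ratio of all shared exonic pairs, and the pairs of SMAD2, SMAD3 and SMAD5 named above lie over the solid line.

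The receptor-activated SMADs had higher best peaks than the inhibitory ones, on average, in both replicates. In replicate 1 the best exonic peak of the 5 receptor-activated genes ranged from 8.18 (SMAD5) to 20.1 (SMAD1), with a geometric mean of 10.7, and the 2 inhibitory genes had 4.20 (SMAD6) and 8.72 (SMAD7), with a geometric mean of 6.05. In replicate 2 the receptor-activated genes ranged from 4.91 (SMAD9) to 13.2 (SMAD1), with a geometric mean of 9.21, and the inhibitory genes had 3.18 and 5.31, with a geometric mean of 4.11. The difference of the mean log2 values was 0.82 in replicate 1 and 1.16 in replicate 2. The 8.18 of SMAD5 belonged to the peak that replicate 2 did not list, and its shared peaks had 4.69 and 4.99 in replicate 1. With shared peaks alone, the difference was 0.68 in replicate 1 and stayed at 1.16 in replicate 2. The groups overlapped in both lists, since SMAD7 lay above SMAD5 and SMAD2 in replicate 1 and above SMAD9 in replicate 2, and with 2 inhibitory genes no test was made.

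In replicate 1 the totals of exonic peaks were 15 over 5 receptor-activated SMADs and 7 over 2 inhibitory SMADs. In replicate 2 these totals were 9 and 4. Because the classes differ in their number of genes, the totals do not rank them. Per kb of exon the receptor-activated class had the lower value. The inhibitory SMADs had 0.560 exonic peaks per kb of exon in replicate 1 and 0.320 in replicate 2, against 0.219 and 0.131 for the receptor-activated SMADs and 0.296 and 0.148 for the ligases. Without SMAD2, which had 1 peak per list in 36.4 kb of exon, the receptor-activated values were 0.436 and 0.249. These were still below those of the inhibitory SMADs but above those of the ligases. The inhibitory rank then rested on SMAD7, which had 1.01 and 0.507 peaks per kb in replicates 1 and 2. SMAD6 had 0.351 and 0.234, above the receptor-activated values with SMAD2 and below those without it. Between the branches, the geometric mean of the best peaks was 11.5 for the BMP members and 9.66 for SMAD2 and SMAD3 in replicate 1, and 7.84 and 11.7 in replicate 2, so their order changed from 1 list to the other.

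Of 60 other genes of the TGF-β and BMP pathways, an exonic peak was listed in both replicates for 35 (58.3%, against 33.4% of protein-coding genes), in replicate 1 for 37 (61.7%, against 42.4%) and in replicate 2 for 35 (58.3%, against 34.1%). These 60 genes were chosen with earlier results of these data known, and the shares were not matched for exonic length or transcript amount. All 11 adaptors and SMAD cofactors had an exonic peak in both, as had 6 of 12 ligands, 7 of 12 receptors, 6 of 10 other ubiquitin ligases and deubiquitinases and 4 of 9 targets. Among 6 genes grouped as extracellular or membrane inhibitors only BAMBI, a decoy receptor, had one. That group includes LTBP1, a binding protein of latent TGF-β. The highest geometric means of a shared peak were those of ACVR1, a type I receptor (18.9 in replicate 1 and 17.5 in replicate 2), BMP2, a ligand (14.6 and 17.5), CDKN2B, a cell-cycle inhibitor induced by TGF-β (21.6 and 7.46), TGIF2, a SMAD corepressor (14.99 and 10.4), and ACVR2A, an activin receptor (16.1 and 9.10). The strongest SMAD1 peak, with a geometric mean of 16.3, lay between those of ACVR1 and BMP2.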

How the data were processed

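m6A peak lists of 2 IP samples of OE-19 cells were analysed, and the 2 input samples entered no comparison. Per the study's methods, total RNA was DNase-treated, fragmented and incubated with anti-m6A, but UV fixation and lysis of cells are given in the labels. According to the methods, paired-end reads were mapped to hg38 with TopHat2 and peaks called with MACS2 at default settings, while the submitters' processing notes list fastp, HISAT2 and MACS2. Versions, and whether the input served as control, are not given in the sources used here. For each peak the authors deposited a ratio, namely fold enrichment over the caller's background at the summit, with −log10 p-value, −log10 q-value, a score that was not used, and the summit as an offset from the start. Both deposited lists end at a q-value of 0.05, with 0.0491 and 0.0497 as their highest values. Depth is unknown, as read numbers are not part of the lists, and neither is strand. Fold enrichment depends on the caller's background and is not a methylation level.

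Summits were placed on GENCODE release 44 with the MANE Select transcript of each gene as reference transcript (or the transcript with the longest coding sequence where there was none). Regions were 5′ UTR, coding sequence, 3′ UTR or a stop codon window reaching 200 nt to either side. The motif search used the gene's strand and the 50 nt of genome to either side of the summit. Coding sequences were aligned to SMAD1 with Biopython 1.88, and uniqueness was checked with 31-base words on the primary chromosomes. Intervals are 95% Wilson intervals. The scripts (Python 3.11.15, numpy 2.4.6, pysam 0.24.0) were tested on simulated peak lists. The members and the pathway list were chosen with earlier results of these data known, and no test was made, since the lists hold 1 group and genes are not replicates. All members are described. Of the pathway list, the 5 genes with the highest geometric mean of a shared exonic peak are named with values. BAMBI was named after its values were seen, as the single gene of the inhibitor group with a peak. The alternatives were stricter q and fold enrichment limits, the peak midpoint, other overlaps, windows and transcripts, and each replicate left out.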

Additional observations from a re-analysis of the deposited data

How the results depend on the processing

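Of 77 alternatives over 15 results, 62 stayed close to the reported value, 15 moved further and 0 changed sign. Close meant within 1.5 times a count, within the Wilson interval of a percentage, or within the spread between replicates or peak pairs. Most of the 15 came from keeping peaks with a fold enrichment of 5 or more. This left 12 peaks in replicate 1 and 5 in replicate 2, 5 genes with an exonic peak in both replicates, a shared percentage of 36.4% in replicate 1, 2 and 1 summits in the stop codon window in replicates 1 and 2, GGAC at 80% of summits in replicate 2, and 21 pathway genes with a peak in both. Under this limit the difference between receptor-activated and inhibitory SMADs was 0.30 in replicate 1, where SMAD6 has no peak left. With the mean over all exonic peaks of a gene in place of its best, the difference was 0.75 in replicate 2. A stop codon window of 100 nt held 3 summits in replicate 1, and the motif window moved the GGAC percentage of replicate 1 to 22.2% at 25 nt and 70.4% at 100 nt. In replicate 2 it went to 33.3% and 73.3%, which counted as unchanged because the Wilson interval there was wide (30.1 to 75.2%). Without SMAD2, the receptor-activated SMADs had 0.436 and 0.249 exonic peaks per kb in replicates 1 and 2. Without replicate 1, 9 genes had an exonic peak, and without replicate 2, 10. The transcript of longest coding sequence, the peak density without SMAD2 and the removal of summits in exons of other genes were chosen after seeing the data. No paired analysis was possible because the results come from no test. With 2 lists, no read numbers, no input list and no expression values, neither the precision of a fold enrichment nor the cause of an absent peak could be assessed.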

Other observations

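Of the 47 peaks in the gene bodies of both lists, 43 held no 31-base word that occurs elsewhere on the primary chromosomes. The exceptions were a SMAD5 3′ UTR peak of replicate 1, with 4 such words (1.74% of its words), the SMAD6 exon 1 peak, with 1 word in each list, and the SMURF1 intronic peak, with 6 words (5.04%).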
